A study of Mus musculus with 7 samples.

Results

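The sections compared here were cryosections of dystrophic tibialis anterior muscle, ranked within each muscle by 5 markers of regenerating muscle fibres. In the 3 DMD muscles a section was kept when its total was at least 1000 counts and at least 20% of the median total of its muscle, which left 192 of 233 sections. Sections were chosen by a measured value: each was scored by its summed CPM, counts scaled by the section's total, of Myh3, Myh8, Myog, Mymk and Tnnt2. The 25% of sections with the highest score are called marker-rich and the 25% with the lowest score marker-poor. That gave 16, 17 and 15 rich and as many poor sections in DMD 1, DMD 2 and DMD 3, or 48 and 48 of 525 sections in the whole series.

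The series profiled polyA RNA from single cryosections of mouse tibialis anterior, a large muscle of the lower leg, in 3 DMD, 2 Ctr and 2 WT muscles. The labels give no strain, age, sex or allele for any group. The table headers add mdx to DMD, hDMD to Ctr and pax7 to WT columns, terms that no label defines. Whether each muscle came from its own animal is not stated. The p-values therefore reflect spread of the rich-to-poor difference among the muscles sampled, which may be technical.

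When a muscle fibre dies, satellite cells divide, become myoblasts and fuse into new fibres. Myog is the transcription factor of terminal myoblast differentiation, Mymk the membrane protein that drives fusion, and Myh3, Myh8 and Tnnt2 encode embryonic or neonatal parts of the sarcomere that young fibres use before adult forms replace them. Macrophages, matrix-producing cells and signals for growth surround such fibres. Dystrophic muscle goes through repeated rounds of this process in patches.

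The scores are the values by which the sections were chosen and are given only as a description. The median score of the rich sections was 288 CPM in DMD 1, 313 CPM in DMD 2 and 78.2 CPM in DMD 3, against 63.0, 121 and 23.5 CPM in the poor sections of the same muscles. The median of the poor sections of DMD 2 thus lay above that of the rich sections of DMD 3. The last section inside the rich group scored 202, 267 and 63.1 CPM in DMD 1, 2 and 3, and the first outside it 201, 260 and 62.9 CPM. At the other end, the last section inside the poor group scored 118, 153 and 31.2 CPM, and the first outside it 120.0, 153 and 31.8 CPM. The same ranking in Ctr and WT muscles rested on few reads, since the highest score of any section there was 54.8 CPM. Rich sections of DMD 1, 2 and 3 held 2386, 895 and 503 marker counts, and poor sections 777, 258 and 89.

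**Figure D1:**
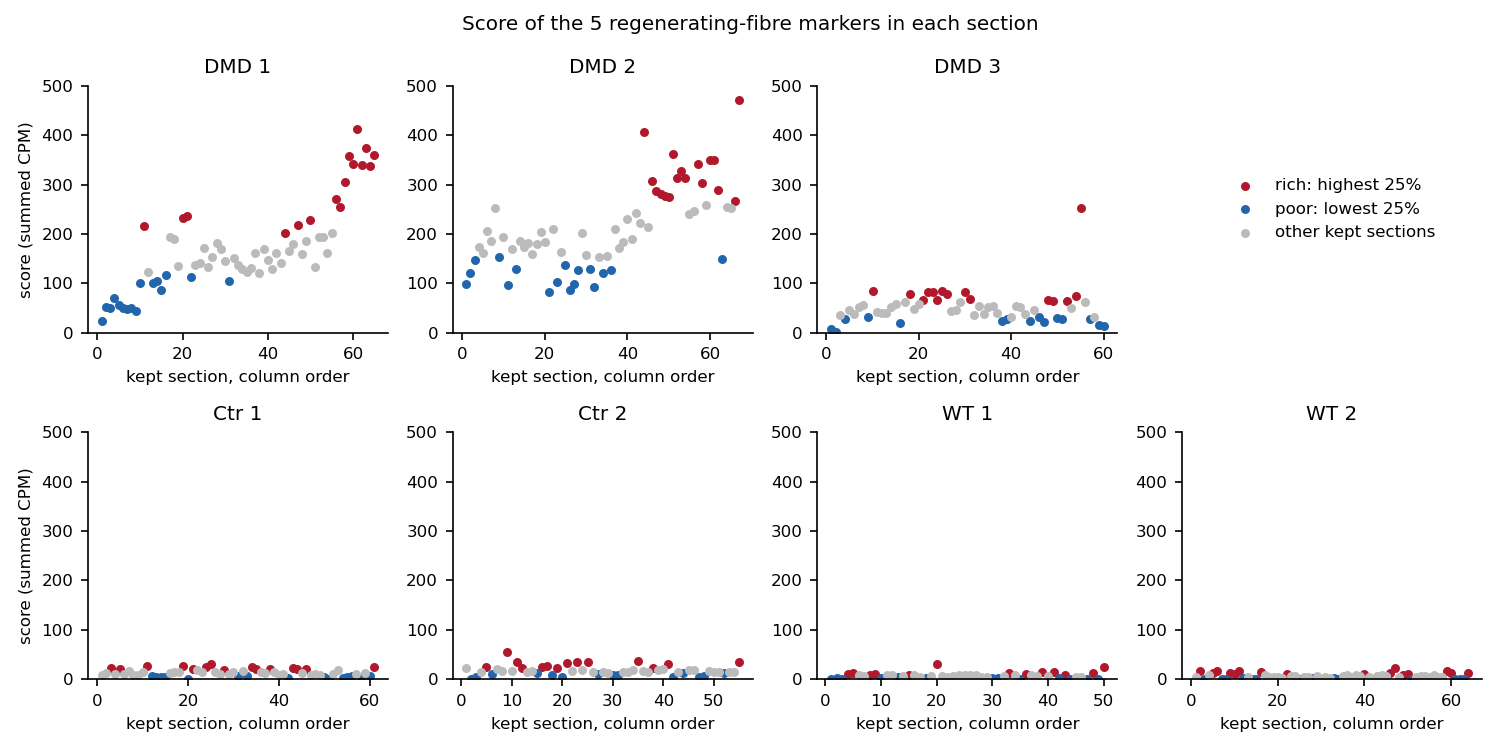
Each point is 1 kept section; the x axis is its place in the order of the table's columns and the y axis its summed CPM of the 5 score markers, with rich sections red and poor sections blue. Scores climb along the columns in DMD 1 and DMD 2, and scatter in DMD 3, where 1 section at 254 CPM stands above the next at 84.9 CPM.

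Rich sections were not spread evenly over the columns, whose order the labels do not tie to anatomy. Beyond the midpoint of the kept columns lay 13 of 16 rich sections of DMD 1, 17 of 17 of DMD 2 and 6 of 15 of DMD 3, against 0 of 16, 3 of 17 and 10 of 15 poor sections. Over neighbouring sections, which share a muscle and a library, Pearson's r of the score was 0.86, 0.63 and 0.27 in DMD 1, 2 and 3. Summed totals were 8731333, 2769423 and 6136724 counts in rich sections, against 9454375, 2165882 and 3729171 in poor sections. DMD 1 therefore carried most of the reads. When sections were ranked within runs of 8 neighbours, which holds column position nearly constant, list medians were 0.16 for fibrotic matrix, 0.12 for macrophage, 0.09 for proliferation, -0.15 for erythroid and -0.07 for mitochondrially encoded genes, all nearer 0 than the values below. The median log2 fold of the 5 score markers, given as a description, was then 0.65, against 1.43 in the main choice of sections. That setting was chosen after seeing the data, and the part of position in the results was not tested further.

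Counts of each muscle's rich sections and of its poor sections were added up, which gave 6 sums, and edgeR's quasi-likelihood test compared them with the muscle as a block. Of 10910 genes tested besides the score markers, 10 passed a Benjamini-Hochberg adjusted p of 0.05, or 0.0917% of the genes. Of these, 9 were higher in rich sections (0.0825%) and 1 was lower (0.00917%). A further measure is the unadjusted p, which was below 0.05 for 945 genes (8.66%), 685 higher (6.28%) and 260 lower (2.38%). All levels below are CPM on 1 scale, set by trimmed-mean (TMM) factors over 4 score classes of all 7 muscles, each 25% of the sections, and a standard error after a log2 fold is approximate. Vash2 was the gene that met every condition set for naming a change: at least 20 CPM, the same direction in all 3 muscles and no overlap of rich and poor sums. Irf7 and Chad were named as called members of lists, and the other 7 after their values were seen.

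Vash2 (vasohibin 2, chr1:190947646-190979296 in GRCm38, minus strand) encodes an enzyme that removes the terminal tyrosine from alpha-tubulin in microtubules. It stood at 29.7, 40.0 and 16.1 CPM in rich sections of DMD 1, 2 and 3, against 8.63, 15.8 and 9.59 CPM in poor sections. All 3 rich sums lay above all 3 poor sums. The means were 28.6 ± 11.98 CPM in rich sections and 11.3 ± 3.88 CPM in poor sections (SD, n = 3 each), and the log2 fold was 1.33 ± 0.21 (SE, edgeR quasi-likelihood adjusted p = 0.00693). In Ctr and WT sums Vash2 ranged over 0.886 to 8.58 CPM, below all 6 DMD sums.

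Dclk1 (chr3:55242364-55539068) encodes doublecortin-like kinase 1, another protein of microtubules. It had 15.4, 22.2 and 6.28 CPM in rich sections, against 7.57, 8.07 and 2.62 CPM in poor sections, and was higher on the rich side within each of the 3 muscles. Its log2 fold was 1.16 ± 0.23 (adjusted p = 0.0428, edgeR). Ctr and WT sums held 0.222 to 1.72 CPM. The rich sum of DMD 3 lay below the poor sums of DMD 1 and DMD 2, so Dclk1 separated the sides only inside a muscle.

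St8sia2 (chr7:73939119-74013690) encodes a sialyltransferase that builds polysialic acid chains on the adhesion molecule NCAM. It had 14.0, 2.91 and 0.644 CPM in rich sections, against 2.29, 1.47 and 0.291 CPM in poor sections, from 189, 11 and 4 counts and 26, 4 and 1 counts. The log2 fold was 2.21 ± 0.36 (adjusted p = 0.00775, edgeR), and DMD 1 gave most of the counts. Tead2 (chr7:45215753-45233644), a DNA-binding partner of the growth coactivators YAP and TAZ, had 4.74, 5.56 and 0.966 CPM in rich sections, against 1.14, 1.47 and 0 CPM in poor sections (log2 fold 2.03 ± 0.41, edgeR adjusted p = 0.0480). Both genes were higher on the rich side in all 3 muscles, but in DMD 3 on 4 counts against 1 for St8sia2 and on 6 against 0 for Tead2.

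Gm28653 is a long intergenic non-coding RNA in GENCODE at chr1:20669882-20684298 on the plus strand, and its span contains the hairpins of Mir206 (chr1:20679010-20679082) and Mir133b (chr1:20682769-20682887), 2 microRNAs of skeletal muscle. It had 7.55, 3.97 and 0.644 CPM in rich sections, against 1.497, 1.47 and 0 CPM in poor sections, where the poor sections of DMD 3 held no count. The log2 fold was 2.11 ± 0.39 (edgeR adjusted p = 0.0308). No count of Gm28653 was found in any of the 8 rich or poor sums of Ctr and WT muscles, whose smallest sum held 2522873 counts. Exons of the host overlap the microRNA entries on the same strand, and reads on both were divided between them. PolyA reads on the host do not measure the mature microRNAs. Their main arms are shown because the host is among the called genes, in RefSeq's GRCm38.p6 sequence, 5′ to 3′, with the seed (bases 2 to 8) in capitals.
miR-206-3p (chr1:20679055-20679076, plus strand): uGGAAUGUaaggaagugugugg
miR-133b-3p (chr1:20682834-20682855, plus strand): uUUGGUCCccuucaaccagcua
The seeds of the 2 arms differ. In muscle, miR-206 is known as a microRNA of differentiating and regenerating fibres.

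Another 4 of the called genes belong to blood-borne or interferon-responding cells in textbook accounts, and most of their reads came from DMD 1. Irf7 (chr7:141262706-141266481), a transcription factor of the type I interferon response, had 11.9, 1.32 and 1.13 CPM in rich sections, against 1.85, 0.367 and 0.582 CPM in poor sections. Its log2 fold was 2.38 ± 0.38 (edgeR adjusted p = 0.00731), on 161, 5 and 7 counts against 21, 1 and 2. Tlr1 (chr5:64924679-64933563), a receptor of bacterial lipopeptides, had 9.77, 2.12 and 0.161 CPM against 1.76, 1.10 and 0 CPM in rich and poor sections (log2 fold 2.16 ± 0.40, edgeR adjusted p = 0.0308). Gpr65 (chr12:98268635-98276644), a proton-sensing receptor of leukocytes, had 7.40, 2.91 and 1.61 CPM in rich sections, against 1.67, 0.734 and 0.872 CPM in poor sections (log2 fold 1.87 ± 0.37, edgeR adjusted p = 0.0479). Those 3 genes were higher on the rich side in each DMD muscle, though DMD 3 gave Tlr1 a single count.

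Slfn1 (chr11:83116849-83122670), a member of the schlafen family first described in T cells, was not higher in every muscle. It had 18.9, 0 and 0.805 CPM in rich sections, against 2.46, 1.10 and 0 CPM in poor sections, and in DMD 2 that was 0 counts against 3. Its log2 fold of 2.56 ± 0.48 (edgeR adjusted p = 0.0321) thus describes DMD 1, with 255 counts against 28. Chad (chr11:94565047-94569127), chondroadherin, a leucine-rich protein of cartilage and tendon matrix, was the 1 called gene that fell. It had 2.89, 5.83 and 3.54 CPM in rich sections, against 6.69, 8.80 and 16.9 CPM in poor sections, and the log2 fold was -1.42 ± 0.27 (edgeR adjusted p = 0.0378). The largest drop was in DMD 3.

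**Figure D2:**
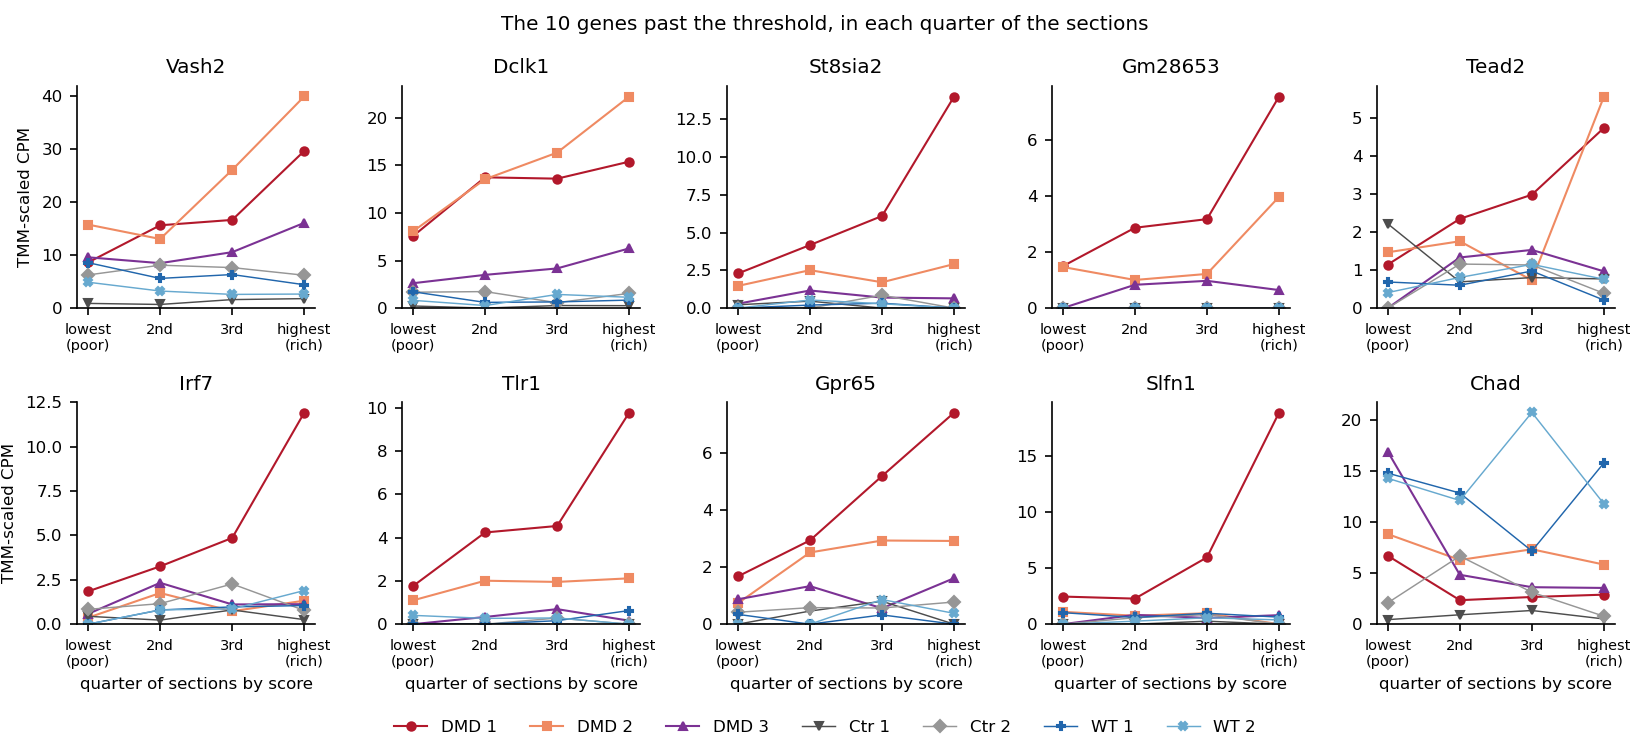
Lines join the TMM-scaled CPM (y axis) of each of the 10 called genes in 4 score classes of sections (x axis, poor to rich) for 3 DMD, 2 Ctr and 2 WT muscles. Vash2 and Dclk1 are highest in the rich sections of all 3 DMD muscles, while Irf7, Tlr1, Slfn1 and St8sia2 stand high mainly in the rich sections of DMD 1.

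These calls rest on few muscles. Without DMD 2 the count of called genes was 519, without DMD 3 it was 55 and without DMD 1 it was 1 (Angptl7), so each muscle moved it by more than 1.5 times. No gene passed without the muscle block (96 at an unadjusted p below 0.05), with library-size scaling (1633), or when sections were ranked within runs of 8 neighbours (616). Within those runs the log2 fold was 0.36 for Vash2, 0.30 for Dclk1, 0.27 for St8sia2, 0.072 for Tead2 and 0.55 for Gm28653. It was 0.027 for Irf7, 0.098 for Tlr1, 0.80 for Gpr65 and 0.25 for Slfn1, and 0.34 for Chad. The called genes that were higher thus all had smaller log2 folds there than in the main choice of sections. DESeq2 called 3 genes, of which Vash2 was 1. Library-size scaling moved the median log2 fold over all genes to 0.27, so log2 folds here are relative to the TMM scale.

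The label of the sections was checked with 12 genes of embryonic and regenerating fibres that the score did not use. Of these, 11 had enough counts to be tested and none passed the adjusted threshold, so the sections are named by their score and not as a fibre type. The median log2 fold of the 11 was 0.08, against 0.01 over all genes tested. By muscle the median log2 ratio, with 1 CPM added to each value, was -0.19, 0.40 and 0.19 in DMD 1, 2 and 3. In the same order 5, 9 and 7 of the 11 were higher on the rich side. In all 3 muscles 3 of the 11 were higher, where 14.99% of all genes were, and 4 of 11 had an unadjusted p below 0.05 with a higher level, against 6.28% of all genes. Fewer cells of a type and less RNA per cell cannot be told apart in these sums.

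The 4 genes were Chrng, Chrna1, Ncam1 and Nes. Chrng encodes the gamma subunit of the fetal acetylcholine receptor, which adult muscle replaces with the epsilon subunit. It had 6.88, 8.74 and 1.13 CPM in rich sections, against 2.38, 1.83 and 1.45 CPM in poor sections, higher in DMD 1 and DMD 2 and lower in DMD 3. Its log2 fold was 1.40 ± 0.35 (edgeR adjusted p = 0.133), and no read of it was counted in the 8 Ctr and WT sums. Chrna1, the alpha subunit of the same receptor, had 53.8, 47.1 and 35.6 CPM in rich sections, against 31.3, 35.6 and 21.5 CPM in poor sections (log2 fold 0.62 ± 0.18, edgeR adjusted p = 0.217). All 3 muscles had more on the rich side, the rich sum of DMD 3 and the poor sum of DMD 2 were both 35.6 CPM, and Ctr and WT sums held 2.65 to 8.53 CPM, below every DMD sum.

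Ncam1, the adhesion molecule that St8sia2 modifies, had 13.4, 10.1 and 3.54 CPM in rich sections, against 5.81, 5.14 and 2.91 CPM in poor sections, for a log2 fold of 0.92 ± 0.25 (edgeR adjusted p = 0.170). Nes, the intermediate filament nestin of young fibres and satellite cells, had 40.1, 41.0 and 27.1 CPM in rich sections, against 23.6, 30.4 and 18.9 CPM in poor sections (log2 fold 0.56 ± 0.18, edgeR adjusted p = 0.313). Chrnd, the receptor's delta subunit, was on the synaptic list and had 7.92, 2.65 and 2.25 CPM against 2.46, 2.57 and 0 CPM in rich and poor sections (log2 fold 1.46 ± 0.40, edgeR adjusted p = 0.170). Each of these 3 was higher on the rich side in all 3 muscles, and none passed the threshold. Chrnd was the 1 of 9 synaptic genes tested that was higher in all 3 muscles.

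Actc1 and Myl4, also genes of young fibres, had log2 folds near 0. Actc1, the cardiac actin of developing muscle, had 169, 823 and 537 CPM in rich sections, against 225, 774 and 345 CPM in poor sections (log2 fold 0.08 ± 0.22, edgeR adjusted p = 0.969). Myl4, the embryonic light chain, had 18.0, 62.2 and 14.5 CPM in rich sections, against 20.7, 53.2 and 15.7 CPM in poor sections (log2 fold -0.06 ± 0.18, edgeR adjusted p = 0.974). Myl4 was 1.94 to 5.15 CPM in Ctr and WT sums, below all 6 DMD sums.

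**Figure D3:**
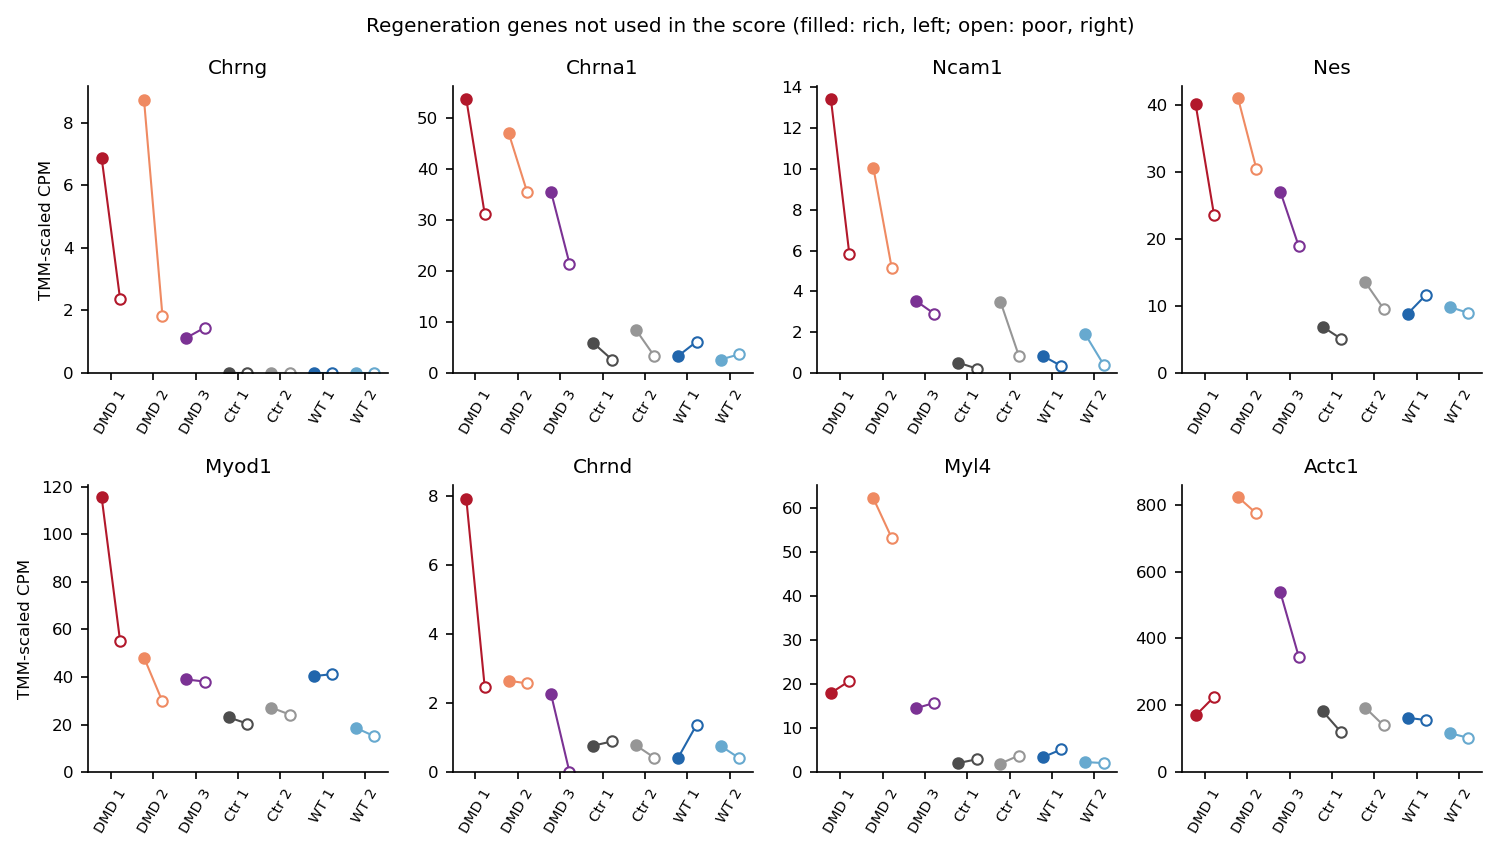
TMM-scaled CPM (y axis) of 8 genes of regenerating or developing muscle that were not in the score, in rich (filled) and poor (open) sections of each muscle (x axis). Chrna1, Ncam1, Nes, Myod1 and Chrnd are higher in the rich sections of all 3 DMD muscles, and Chrng, Myl4 and Actc1 are not. Of genes tested, 3 of 11 on the embryonic list, 1 of 9 on the fusion list and 1 of 9 on the synaptic list were higher in all 3.

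The promoters of Chrng, Chrna1 and Vash2 are shown because acetylcholine receptor genes are textbook targets of the myogenic factors, which bind E-boxes. The motif searched was CAGCTG, which reads the same on both strands, in the window from 250 bases before to 50 bases after each RefSeq start. RefSeq's GRCm38.p6 set has 32851 such windows, of which 5355 held it, or 16.3%. Chrng and Chrna1 held it 2 times each and 1 of 2 Vash2 windows held it once. The windows of St8sia2, Dclk1, Tead2, Irf7 and Nes did not hold these letters. Of 2 Cdkn1a windows, 1 held them, 37 bases after the start. The motif was not looked up by gene for Chrnd, Chrnb1, Ncam1, Tlr1, Gpr65, Slfn1 and Chad. A match describes the sequence and is not evidence of binding. The motif is in capitals in the windows below, each written 5′ to 3′ on the gene's strand.
Chrng (chr1:87205561-87205860, plus strand): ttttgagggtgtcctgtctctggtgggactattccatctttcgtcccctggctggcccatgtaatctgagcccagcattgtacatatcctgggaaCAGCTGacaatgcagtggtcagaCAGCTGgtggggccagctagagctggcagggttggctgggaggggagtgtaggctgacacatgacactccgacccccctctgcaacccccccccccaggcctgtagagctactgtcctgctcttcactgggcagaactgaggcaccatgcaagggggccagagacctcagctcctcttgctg
Chrna1 (chr2:73580289-73580588, minus strand): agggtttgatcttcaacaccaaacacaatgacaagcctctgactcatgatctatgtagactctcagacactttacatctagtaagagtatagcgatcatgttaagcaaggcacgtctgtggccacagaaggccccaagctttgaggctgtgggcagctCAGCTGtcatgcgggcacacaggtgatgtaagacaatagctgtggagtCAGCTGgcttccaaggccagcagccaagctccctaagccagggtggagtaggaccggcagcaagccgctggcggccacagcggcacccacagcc
Vash2 (chr1:190978949-190979248, minus strand): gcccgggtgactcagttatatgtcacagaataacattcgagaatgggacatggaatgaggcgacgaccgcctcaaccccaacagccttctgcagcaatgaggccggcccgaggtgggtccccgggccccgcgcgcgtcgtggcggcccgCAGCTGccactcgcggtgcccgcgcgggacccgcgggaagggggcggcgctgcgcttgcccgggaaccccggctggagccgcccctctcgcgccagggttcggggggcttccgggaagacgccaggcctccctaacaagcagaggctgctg

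Among 12 genes of fusion and the myogenic programme, 9 were tested and none passed. Mymx, Pax7 and Megf10 had too few counts for a test. Myod1, the transcription factor of the myoblast lineage, had 116, 48.2 and 39.0 CPM in rich sections, against 55.3, 29.7 and 38.1 CPM in poor sections, a log2 fold of 0.60 ± 0.20 (edgeR adjusted p = 0.337). It was higher on the rich side in each muscle, by least in DMD 3. Des, the muscle intermediate filament desmin and the most abundant member, had a log2 fold of -0.06 ± 0.21 (edgeR adjusted p = 0.978). The median of the 9 was 0.11. By muscle the median log2 ratio, with 1 CPM added to each value, was -0.16, 0.18 and 0.03 in DMD 1, 2 and 3. Myod1 was the 1 of 9 that was higher in all 3 muscles, against 14.99% of all genes. Another 1 of 9 was lower in all 3, against 12.04%.

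Imprinted growth genes, which are active in fetal and regenerating muscle, had a median log2 fold of 0.49 over 7 of 9 genes tested, with no gene called. Of the 7, 5 had an unadjusted p below 0.05 with a higher level, against 6.28% of all genes, and 3 were higher in all 3 muscles, against 14.99%. The median was 0.28 without DMD 1 and 0.0697 within runs of 8 sections. The 3 higher in every muscle were Igf2, the growth factor, with 28.7, 109 and 42.0 CPM in rich sections, against 24.3, 58.3 and 31.1 CPM in poor sections (log2 fold 0.50 ± 0.19, edgeR adjusted p = 0.423), Grb10 and Cdkn1c. Grb10, an inhibitor of insulin and IGF receptor signalling, had 21.0, 36.5 and 21.9 CPM against 15.0, 23.5 and 16.0 CPM in rich and poor sections, and its log2 fold was 0.49 ± 0.18. Cdkn1c, a cell-cycle inhibitor of differentiating myoblasts, had 45.1, 69.6 and 48.0 CPM against 27.6, 46.6 and 43.3 CPM, and its log2 fold was 0.46 ± 0.18. Igf2 shares exon sequence on its strand with Gm49394, so its counts are uncertain. H19, the most abundant of the list, had a log2 fold of -0.07 ± 0.22 (edgeR adjusted p = 0.973).

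Cdkn1a, which encodes the cell-cycle inhibitor p21 and stood on the list of denervation and atrophy genes, had 80.1, 34.2 and 17.2 CPM in rich sections, against 35.0, 22.0 and 11.6 CPM in poor sections. It was higher in all 3 muscles (log2 fold 0.83 ± 0.19, edgeR adjusted p = 0.109). It missed the threshold on these 6 sums and passed it when all 7 muscles shared 1 fit (edgeR adjusted p = 0.0437), with adjusted p of 0.00108 to 0.99998 over its alternatives. The list as a whole had 9 of 10 genes tested, none called and a median of 0.17, and its most abundant member, the ubiquitin ligase Fbxo32, had a log2 fold of -0.12 ± 0.20.

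Collagens and other fibrotic matrix genes all had positive log2 folds, and none was called. All 17 were tested and the median was 0.46. In all 3 muscles 10 of 17 were higher, against 14.99% of all genes, and 12 of 17 had an unadjusted p below 0.05, against 6.28%. By muscle the median log2 ratio, with 1 CPM added to each value, was 0.90, 0.13 and 0.35 in DMD 1, 2 and 3, and without DMD 1 the list median was 0.21. Col5a1, a regulator of collagen fibril assembly, had 92.1, 70.2 and 26.2 CPM in rich sections, against 42.4, 49.5 and 16.6 CPM in poor sections, for a log2 fold of 0.76 ± 0.19 (edgeR adjusted p = 0.127). It passed when all 7 muscles shared 1 fit (edgeR adjusted p = 0.0201), with adjusted p of 0.00148 to 0.99998 over its alternatives. Col6a3 had 43.2, 49.3 and 23.8 CPM against 27.7, 38.1 and 17.2 CPM in rich and poor sections (log2 fold 0.47 ± 0.18), and Col3a1 315, 259.8 and 119 CPM against 159.9, 242 and 92.5 CPM (log2 fold 0.46 ± 0.20). Sparc, the most abundant of the list, had a log2 fold of 0.26 ± 0.20 (edgeR adjusted p = 0.784). Genes of fibro-adipogenic progenitors, a main source of muscle matrix, had a median of -0.05 over 10 genes, and Gsn had a log2 fold of 0.18 ± 0.20.

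Macrophage genes did not share a direction across the muscles. The 16 genes had a median log2 fold of 0.71, all 16 positive and none called, yet the median log2 ratio was 1.55, -0.32 and 0.54 in DMD 1, 2 and 3. Their summed level was 2124, 939 and 288 CPM in rich sections, against 703, 1173 and 194 CPM in poor sections. Rich sections of DMD 2 thus held less than its poor sections. In all 3 muscles 2 of 16 genes were higher, against 14.99% of all genes. Without DMD 1 the median over the list was 0.02. No defining marker was at 0 in a DMD sum. Trem2, a lipid receptor of macrophages, was 1 of those 2, with 17.5, 7.41 and 1.77 CPM in rich sections, against 5.55, 6.60 and 0.291 CPM in poor sections (log2 fold 1.20 ± 0.30, edgeR adjusted p = 0.137). Spp1, osteopontin, had 73.7, 10.3 and 1.77 CPM against 19.9, 12.1 and 0.582 CPM in rich and poor sections (log2 fold 1.18 ± 0.31, edgeR adjusted p = 0.158), and it shares exon sequence with Gm42793. C1qc, a chain of complement C1q, had 114, 63.3 and 29.5 CPM in rich sections, against 37.8, 71.9 and 18.0 CPM in poor sections (log2 fold 0.71 ± 0.25). Lyz2, the most abundant, had 415, 243 and 77.8 CPM against 169, 319 and 52.6 CPM (log2 fold 0.47 ± 0.25). Whether the macrophage level takes part in the difference of Irf7, Tlr1, Gpr65 and Slfn1 was not tested.

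The medians of proliferation and interferon genes were above 0 in DMD 1 and at or below 0 in DMD 2 and DMD 3. Of 10 proliferation genes 9 were tested and none passed, with a median log2 fold of 1.15 and medians by muscle of 1.68, -0.15 and -0.09. Mki67, the marker of cycling nuclei, had 9.11, 2.65 and 0 CPM in rich sections, against 2.11, 2.20 and 0 CPM in poor sections (log2 fold 1.62 ± 0.40, edgeR adjusted p = 0.133). Birc5, survivin, had 10.96, 1.32 and 0.161 CPM against 2.73, 1.47 and 0 CPM in rich and poor sections (log2 fold 1.64 ± 0.39). Ccna2, cyclin A2, had 10.5, 3.44 and 0.322 CPM against 2.82, 3.30 and 0 CPM (log2 fold 1.39 ± 0.37). Mki67, Birc5 and Ccna2 held 0, 1 and 2 counts in the rich sections of DMD 3 and 0 in its poor sections. Without DMD 1 the median of the list was -0.29. Pcna, the most abundant, had a log2 fold of 0.22 ± 0.22. Of 10 interferon genes 8 were tested and Irf7 alone passed, with a list median of 0.73 and medians by muscle of 1.29, -0.21 and 0.00. Without DMD 1 the interferon median was -0.11. None of 10 lymphocyte and granulocyte genes had enough counts for a test, and their summed level was 4.37, 1.32 and 1.77 CPM in rich sections, against 3.52, 1.47 and 1.45 CPM in poor sections.

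**Figure D4:**
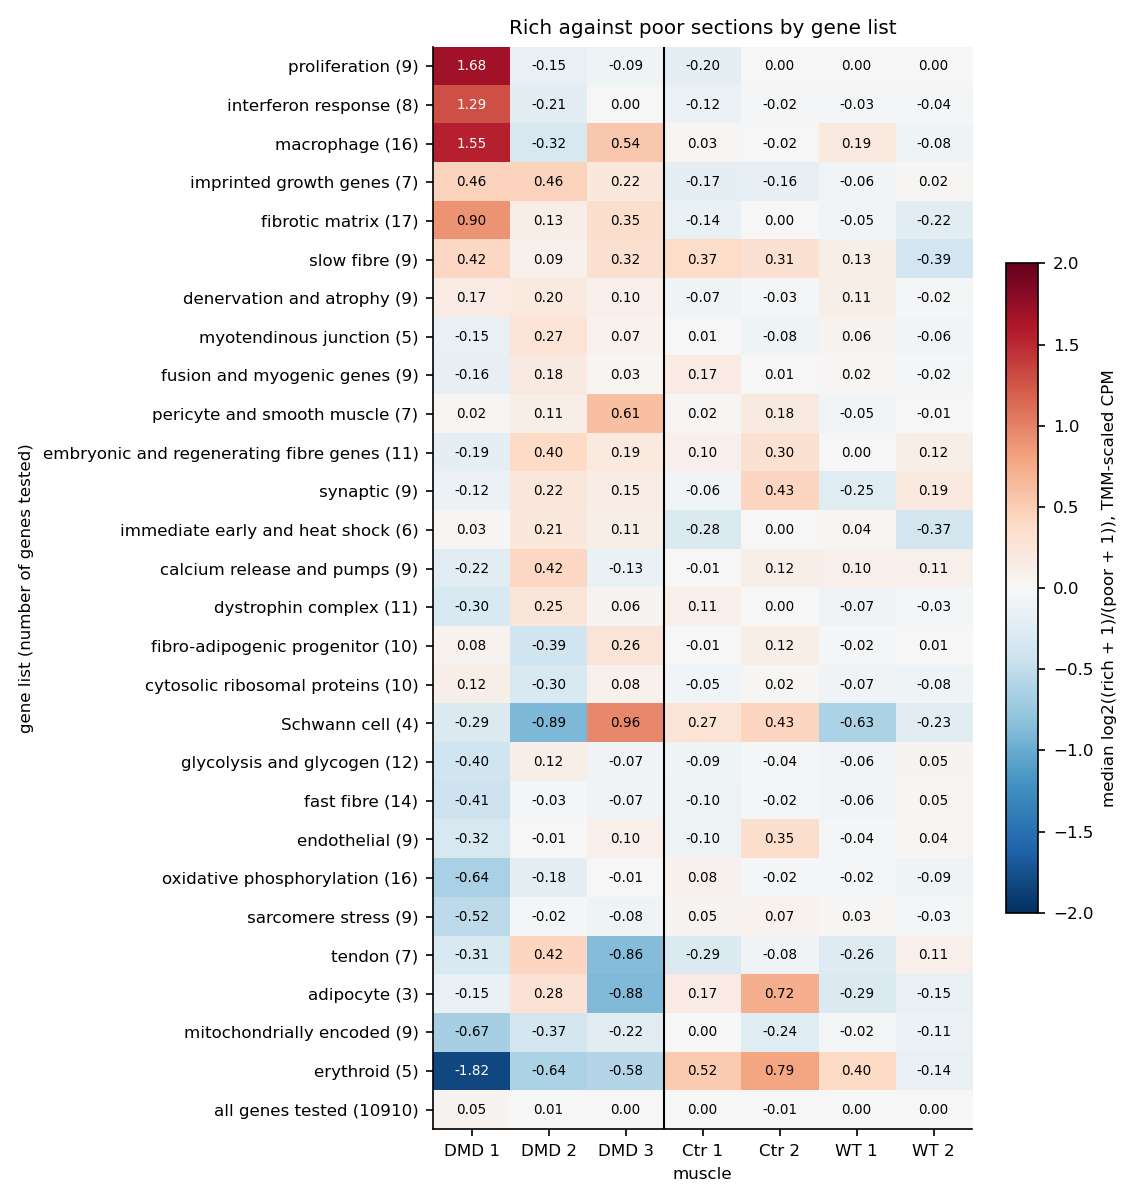
Colour and number give the median log2 ratio of rich over poor sections, with 1 CPM added, for each list of genes (rows, number tested in brackets) in each muscle (columns). In DMD 1 the proliferation, macrophage and interferon lists have medians of 1.68, 1.55 and 1.29, and in DMD 2 all 3 are below 0. The erythroid and mitochondrially encoded lists are negative in all 3 DMD muscles. The mitochondrially encoded list is also negative in Ctr 2, WT 1 and WT 2.

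Haemoglobin transcripts mark red cells in the tissue. All 5 erythroid genes tested had lower levels in the rich sections of all 3 muscles, where 12.04% of all genes did, and their median log2 fold was -1.10. By muscle the median ratio was -1.82, -0.64 and -0.58, and without DMD 1 the list median was -0.64. All 5 had an unadjusted p below 0.05, against 2.38% of all genes with a lower level, and none passed the adjusted threshold. Hba-a1 had 808, 1347 and 2259.8 CPM in rich sections, against 3206, 2095 and 3699.5 CPM in poor sections (log2 fold -1.13 ± 0.27, edgeR adjusted p = 0.124). Hbb-bs had 321, 513 and 849 CPM against 1133, 903 and 1271 CPM in rich and poor sections (log2 fold -1.10 ± 0.25, edgeR adjusted p = 0.0872). Hba-a2 and Hbb-bt had log2 folds of -1.10 ± 0.27 and -1.04 ± 0.23. Near-identical copies make the split of reads between Hba-a1 and Hba-a2, and between Hbb-bs and Hbb-bt, uncertain. Alas2, the erythroid enzyme of haem synthesis, had 3.41, 3.18 and 8.05 CPM in rich sections, against 10.6, 5.14 and 8.43 CPM in poor sections (log2 fold -0.94 ± 0.29). DESeq2 called Hbb-bs (adjusted p = 0.0103) and Hbb-bt (adjusted p = 0.0384), and adjusted p over the alternatives was 1.34e-05 to 0.99996 for Hbb-bs and 3.38e-05 to 0.99996 for Hbb-bt. Endothelial genes had a median of -0.21 over 9 genes with no call, and Kdr, the VEGF receptor, a log2 fold of -0.28 ± 0.21.

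Transcripts of the respiratory chain had negative log2 folds, and none was called. All 9 mitochondrially encoded genes were lower on the rich side in all 3 DMD muscles, against 12.04% of all genes. None of the 9 had an unadjusted p below 0.05 (edgeR). Their median log2 fold was -0.45, and by muscle the median ratio was -0.67, -0.37 and -0.22. In Ctr 2 that ratio was -0.24, with none of the 9 higher. It was 0.003 in Ctr 1, -0.025 in WT 1 and -0.11 in WT 2. In DMD 1, 2 and 3 mitochondrial genes took 26.3%, 23.2% and 33.7% of the counts of rich sections, against 32.2%, 27.5% and 35.9% of poor sections. mt-Cytb, cytochrome b, had 38939, 35855 and 96331 CPM in rich sections, against 64279, 46312 and 109194 CPM in poor sections (log2 fold -0.45 ± 0.29, edgeR adjusted p = 0.711). All 16 nuclear genes of oxidative phosphorylation had negative log2 folds, with a median of -0.31. Of the 16, 7 were lower in all 3 DMD muscles, against 12.04% of all genes. An unadjusted p below 0.05 (edgeR) was found for 2 of the 16, against 2.38% of all genes with a lower level. Cox6a2, the muscle form of a cytochrome oxidase subunit, had 3852, 6629 and 6363 CPM against 6235, 8715 and 7272 CPM in rich and poor sections (log2 fold -0.45 ± 0.24, edgeR adjusted p = 0.637). By muscle the median ratio of the nuclear list was -0.64, -0.18 and -0.01, nearest to 0 in DMD 3. Without DMD 1 the list medians were -0.27 for mitochondrially encoded and -0.10 for nuclear genes, and within runs of 8 sections the nuclear median was -0.0036 with 8 of 16 genes positive. With library-size scaling the medians were -0.22 for the mitochondrially encoded and -0.07 for the nuclear list, where all genes had 0.27.

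**Figure D5:**
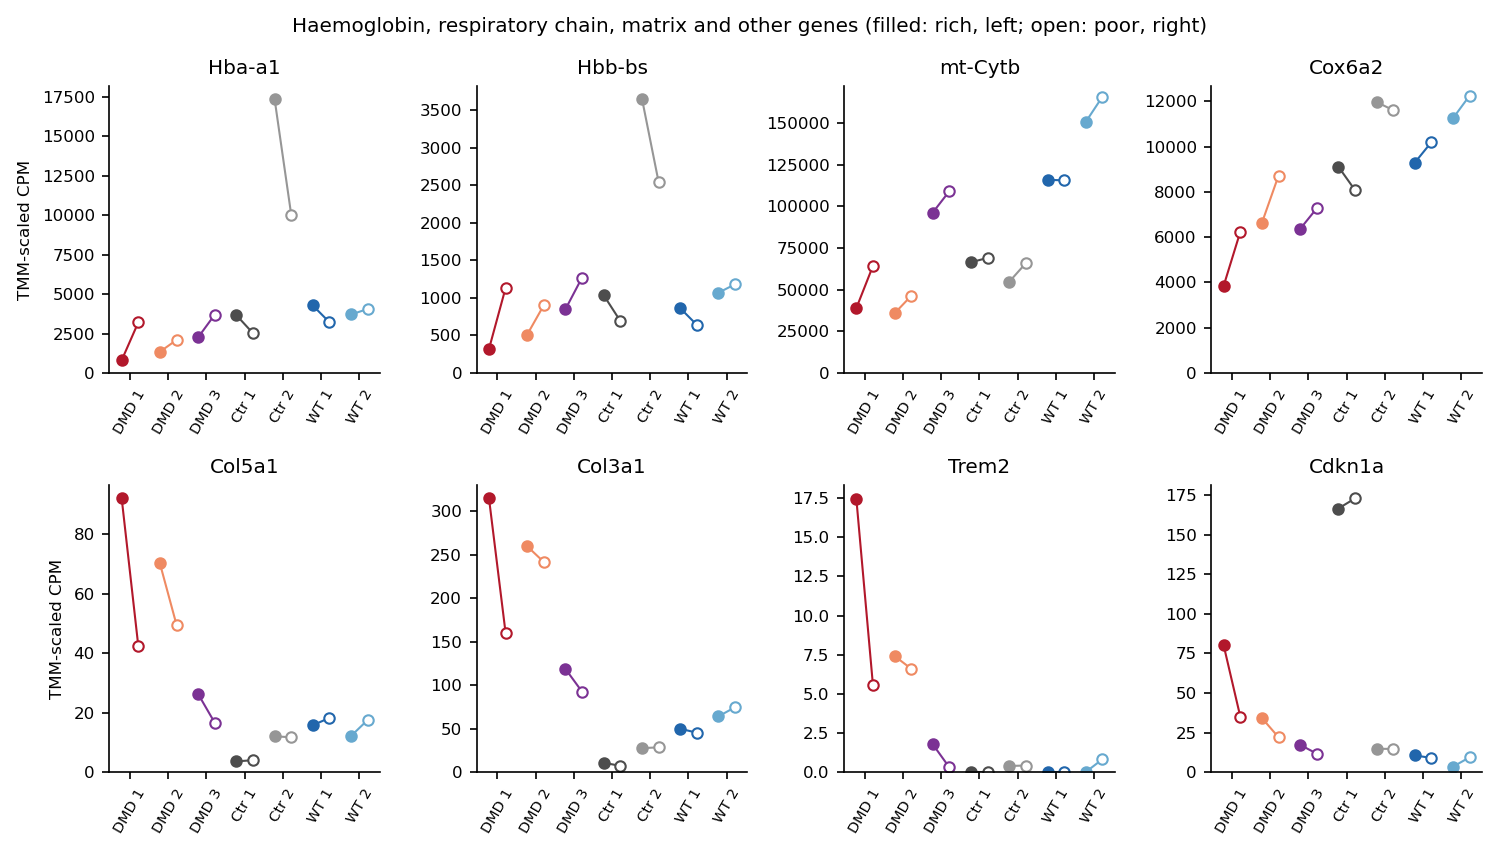
TMM-scaled CPM (y axis) of haemoglobin, respiratory chain, collagen and other genes in rich (filled) and poor (open) sections of each muscle (x axis). Hba-a1, Hbb-bs, mt-Cytb and Cox6a2 are lower and Col5a1, Col3a1, Trem2 and Cdkn1a higher in the rich sections of all 3 DMD muscles. Only 2 of 16 macrophage genes, Trem2 among them, were higher in all 3, and the macrophage median was -0.32 in DMD 2.

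No gene of adult fibre types passed. The 14 fast-fibre genes had a median log2 fold of -0.18, 7 were lower in all 3 muscles, against 12.04% of all genes, and none was called. None of the 14 had an unadjusted p below 0.05 (edgeR). The median was -0.00084 without DMD 1, with 7 of 14 positive, and 0.05 with library-size scaling, where all genes had 0.27. Atp2a1, the fast calcium pump, had a log2 fold of -0.10 ± 0.28. Of 10 slow-fibre genes 9 were tested, with a median of 0.27 and no call. Tnni1, slow troponin I, which developing fibres also use, had 4.22, 15.9 and 2.90 CPM in rich sections, against 2.11, 7.34 and 2.04 CPM in poor sections (log2 fold 0.92 ± 0.27, edgeR adjusted p = 0.222). Myl3, the slow and ventricular light chain, had 5.26, 5.30 and 6.76 CPM in rich sections, against 12.4, 8.80 and 6.69 CPM in poor sections (log2 fold -0.79 ± 0.26, edgeR adjusted p = 0.331). Casq2, the most abundant slow-list gene here, had a log2 fold of 0.10 ± 0.22. Glycolysis genes had a median of -0.13 over 12 genes (Aldoa -0.13 ± 0.24), genes of calcium release 0.00 over 9 (Cacng1 -0.21 ± 0.21), and sarcomere stress genes -0.35 over 9 (Cryab, a small heat shock protein, -0.50 ± 0.24). By muscle the glycolysis medians were -0.40, 0.12 and -0.07 and the calcium release medians -0.22, 0.42 and -0.13, so DMD 2 differed in sign. The sarcomere stress medians by muscle were -0.52, -0.02 and -0.08, and the list median was 0.025 without DMD 1 and 0.015 within runs of 8 sections.

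Dystrophin had a log2 fold near 0. Dmd had 9.11, 20.1 and 8.37 CPM in rich sections, against 11.2, 14.7 and 9.01 CPM in poor sections (log2 fold -0.05 ± 0.22, edgeR adjusted p = 0.986), and 7.98 to 17.8 CPM in Ctr and WT sums, which overlap the DMD values. Ctr and DMD sections were counted with an annotation that also holds the human DMD gene, which was not analysed here. The 11 genes of the dystrophin complex had a median of -0.05, and none was called.

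Tendon genes did not share a direction across the muscles. Of 8 genes 7 were tested, Chad was called and the median was -0.41, with medians by muscle of -0.31, 0.42 and -0.86. The direction of the list turned within runs of 8 sections, where all 7 genes had positive log2 folds and the median was 0.30, and without DMD 1 the median was -0.083 over 6 genes. The summed tendon level was 29.5, 47.9 and 23.0 CPM in rich sections, against 36.3, 34.8 and 50.9 CPM in poor sections. When the 10% of sections with the most tendon signal were left out, 124 genes passed, 113 of them higher, and all 10 genes above were among them. Myotendinous junction genes had a median of 0.13 over 5 (Thbs4 -0.40 ± 0.21) and synaptic genes 0.06 over 9 (Chrnb1 0.06 ± 0.19). Pericyte and smooth muscle genes had a median of 0.10 over 7 (Acta2 0.29 ± 0.21), and adipocyte genes -0.42 over 3 (Fabp4 -0.42 ± 0.19). Schwann cell genes had a median of -0.13 over 4 (Mbp -0.03 ± 0.26), ribosomal protein genes -0.07 over 10 (Rps6 -0.06 ± 0.20), and immediate early and heat shock genes 0.06 over 6 (Jun -0.09 ± 0.20). The Schwann cell medians by muscle were -0.29, -0.89 and 0.96, and the ribosomal medians 0.12, -0.30 and 0.08, so neither list shared a direction. No gene of these 7 lists passed. With library-size scaling, list medians were 0.04 for endothelial, 0.20 for fibro-adipogenic, 0.12 for Schwann cell, 0.17 for ribosomal, 0.10 for glycolysis and 0.22 for dystrophin complex genes, so their sign depends on the scaling. The median over all genes was 0.27 with that scaling and 0.01 on the TMM scale. Each of these lists lay below the median over all genes under both.

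The same ranking was applied to Ctr and WT muscles to ask whether the rich-to-poor effect differed between dystrophic and other muscle. No gene besides score markers passed in the test of DMD minus the mean of Ctr and WT (0 of 10445, edgeR; 583 or 5.58% at an unadjusted p below 0.05; 0 by DESeq2). Rich sections of Ctr and WT held 50 to 84 marker counts, against 503 to 2386 in DMD muscles. Besides a score marker, the lowest p was that of Hbb-bs, with a difference of -1.42 ± 0.24 (adjusted p = 0.0502, edgeR), followed by Hba-a1 with -1.51 ± 0.26 (adjusted p = 0.0502, edgeR). In Ctr 1, Ctr 2, WT 1 and WT 2 Hba-a1 had 3667, 17352, 4279 and 3708 CPM in rich sections, against 2521, 10026, 3216 and 4057 CPM in poor sections, lower on the rich side in WT 2 only. Without DMD 1 the difference of Hba-a1 passed (edgeR adjusted p = 9.03e-05), as it did without DMD 2 (edgeR adjusted p = 0.0115), but not without DMD 3. Over its alternatives adjusted p was 7.05e-12 to 0.99993. For Vash2 the difference was 1.70 ± 0.36 (adjusted p = 0.208, edgeR), for Col5a1 0.99 ± 0.24 (adjusted p = 0.512, edgeR) and for Cdkn1a 1.07 ± 0.27 (adjusted p = 0.587, edgeR).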

How the data were processed

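Members and gene lists were chosen with earlier results of these data known. Per the file headers, the authors deposited expected counts: reads per gene and section, with multi-mapped and multi-overlapping reads divided into fractions (featureCounts 2.0.1, options -M -O --fraction -s 1). Per the submitters' processing notes, alignment used STAR 2.7.7a and GRCm38. Per the labels' protocols, primers carried molecular identifiers and section barcodes; column names carry "dedup2", per the file headers. The WT tables used another annotation, so the 53083 genes shared by all 7 tables were used.

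Section counts were summed per muscle and side and rounded to whole numbers. edgeR 4.0.16 (R 4.3.3) fitted muscle plus side on 6 sums (filterByExpr, TMM, quasi-likelihood F test, Benjamini-Hochberg), and for the difference 14 sums of all 7 muscles. The replicate block is the muscle: the rich and poor sums of 1 muscle are paired because they come from that muscle. The standard error is the absolute log2 fold over the square root of F. TMM factors over 28 sums (4 score classes in 7 muscles) were 0.663 to 1.57. The procedure was tested on simulated data. Depth was 2165882 to 9454375 counts per DMD sum, and floors cover counting error only.

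Genes were named by rule: called genes of at least 20 CPM with 1 direction in all 3 muscles and no overlap, up to 12 per direction, and from each list called members or else the most abundant tested one. Other names were added after their values were seen. Of the genes the rule names, 1 is not reported here. The 28 lists held 283 entries, all among the shared genes. Alternatives were DESeq2 1.42.0, other scalings, filters, section choices, scores and fits, and leaving out each muscle.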

Additional observations from a re-analysis of the deposited data

How the results depend on the processing

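The count of 10 genes called between rich and poor DMD sections became 3 with DESeq2 (33.3% of them higher, against 90.0%), 6 with the top and bottom 20%, 183 with no filter on low counts, 24 with sections thinned to 1 depth (79.2% higher), 18 with sections of at least 50% of the median total and 124 without tendon-rich sections. It was 0 with library-size scaling, with sections scored by their neighbours, within runs of 8 sections and with no replicate block, and 1 to 519 when 1 muscle was left out. With the top and bottom 33% it was 14 (78.6% higher), with a mean z-score 14 (64.3% higher) and with all 7 muscles in 1 fit 14 (57.1% higher). Leaving out the highest-scoring section of DMD 3, chosen after seeing the data, gave the same 10 genes. The count of 0 for DMD minus non-dystrophic muscle became 3 with library-size scaling, 17 with no filter, 5 with the top and bottom 33%, 4 with thinning, 3 with sections of at least 50% of the median total, 3 without tendon-rich sections, 1 within runs of 8 sections, 3 without that section and 0 to 17 when 1 muscle was left out.

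Log2 folds of these named genes changed sign, and the cause was not tested. With DESeq2, Mbp was 0.0052. With library-size scaling, Aldoa was 0.10, Atp2a1 0.14, Cacng1 0.019, Des 0.18, Dmd 0.22, Fbxo32 0.12, H19 0.16, Jun 0.16, Mbp 0.23, Myl4 0.19 and Rps6 0.18. The median over all genes tested was then 0.27, against 0.01 in the main setting, and each of these values lay below it. With the top and bottom 20%, Dmd was 0.0098 and Jun 0.11. With the top and bottom 33%, Jun was 0.089, Mbp 0.094 and Myl4 0.024. With the z-score, H19 was 0.0026, Jun 0.14 and Mbp 0.077. With neighbour scores, Actc1 was -0.092, Casq2 -0.074 and Mbp 0.052. With thinning, Casq2 was -0.0088, Des 0.019, Dmd 0.31, Jun 0.47 and Myl4 0.11. With no replicate block, Dmd was 0.058 and Myl4 0.056. Within runs of 8 sections, Alas2 was 0.095, Chad 0.34, Chrng -0.34, Cryab 0.015, Des 0.015, H19 0.0697, Mki67 -0.038, Myl4 0.11, Ncam1 -0.079 and Pcna -0.13. Leaving out 1 muscle gave -0.20 to 0.37 for Actc1, -0.28 to 0.066 for Aldoa, -0.26 to 0.083 for Atp2a1, -0.18 to 0.52 for Casq2, -0.053 to 0.28 for Chrnb1, -0.15 to 0.083 for Des, -0.25 to 0.21 for Dmd, -0.23 to 0.10 for Fbxo32, -0.21 to 0.13 for H19, -0.47 to 0.057 for Kdr, -0.54 to 0.24 for Mbp, -0.19 to 0.092 for Myl4, -0.18 to 0.42 for Pcna and -0.14 to 0.086 for Rps6.

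Most counts of St8sia2, Irf7, Tlr1, Slfn1 and Gpr65 came from DMD 1. The Ctr and WT rankings rest on at most 84 marker counts.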
